A study of Danio rerio with 12 samples.

Results

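Described here are 10 zebrafish genes for iron uptake, storage and export, namely tfa, tfr1a, tfr1b, slc11a2, fth1a, fth1b, fthl27, fthl31, slc40a1 and hamp. They were chosen by symbol: 34 probes of the 43603 on the array carried 1 of these symbols, or an older synonym (zgc:92066 for fthl27, zgc:109934 for fthl31), in the platform annotation, and all 10 genes were among 28497 features on the array. All 10 passed the filter on empty values that left 25264 features for testing. The study compared whole larvae of the wild type AB strain that were 21 days old. From 6 days post fertilization one group was kept for 15 days with silver nitrate (AgNO3), a soluble silver salt, at 0.01 mg/L, and another with silver nanoparticles (AgNPs) at the same dose. The control larvae were kept in conditioned water with methylene blue and no silver. Each of 12 two-colour arrays held RNA of 1 exposed sample and 1 control sample, with 6 arrays for AgNO3 and 6 for AgNPs, and within each group 3 arrays had the exposed RNA in Cy5 and 3 in Cy3. Going by the sample codes, the control RNA came from 6 samples, and each of them was hybridised with an AgNO3 and with an AgNPs sample, so both comparisons with control rest on shared control samples. Tanks are not named for the samples, and the p-values describe no more than the scatter among them, which may be technical.

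Vertebrates move iron through the body bound to transferrin, take it into cells through transferrin receptors and the metal transporter Dmt1, store it inside ferritin shells, and release it through ferroportin. Hepcidin, a peptide hormone made mainly by the liver, binds ferroportin and has it degraded, so that it lowers iron release from gut and macrophages. When a cell is short of iron, iron regulatory proteins protect the transferrin receptor transcript and block translation of ferritin transcripts, so part of this control does not show in transcript levels.

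The values are log ratios of exposed over control larvae, taken as log2. That direction is likely but not settled, because the labels name the dye of each channel and not the order of the ratio, and with the opposite order every sign below turns. The sources also do not say whether the values of the dye-swapped arrays had already been turned, and they were used as deposited. Arrays of the same dye orientation correlated on average at 0.081 in AgNO3 and 0.092 in AgNPs. Those of opposite orientation correlated at -0.024 and -0.021. As deposited, the dye orientations of a group thus did not agree, and the reason was not tested. The whole larva was measured, so fewer cells of a type and less RNA per cell cannot be told apart. Array medians lay between -0.0093 and 0.015. AgNPs replicates 3 to 6 stood apart by a narrow interquartile range of 0.0946 to 0.116, where the other 8 arrays had 0.216 to 0.342.

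None of the 10 iron genes differed from control past the threshold in either exposed group. With limma and an adjusted p of at most 0.05, 0 of 10 passed in AgNO3, where 0.0119% of all tested features did, and 0 of 10 in AgNPs, where 0.0237% did. At an unadjusted p under 0.05 there were 2 genes in AgNO3, against 8.25% of all features, and 0 in AgNPs, against 4.24%. The 2 genes were fthl31, above 0 as were 3.54% of features at that p, and tfr1b, below 0 as were 4.71%. This count of 2 fell to 0 without AgNO3 replicate 1 or without AgNPs replicates 3 to 6. It also fell to 0 with less variable features left out, a filter that removed tfr1b itself. With the swapped arrays turned the count was 1, against 2653 of 25264 features. That gene was hamp, below 0, and not fthl31 or tfr1b. With the arrays as deposited, a fitted value of at least 0.2 in size was found for fthl31 and tfr1b in AgNO3, against 24.5% of features. In AgNPs it was found for tfr1a and slc40a1, against 18.4%. Fitted values were above 0 for 3 of 10 genes in AgNO3 (48.2% of features), but for 6 of 10 with the swapped arrays turned (52%). In AgNPs, as deposited, 5 of 10 were above 0 (51.7%) and the other 5 below 0 (48.3%). Of the 10, none lay above 0 on at least 5 AgNO3 arrays, as 9.64% of features did. With the arrays as deposited, no iron gene lay on the same side of 0 on all 6 arrays of a group. That was so for 1.62% of features above 0 and 2.05% below 0 in AgNO3, and for 2.05% and 1.87% in AgNPs. The median over the 10 fitted values was -0.058 in AgNO3, beside -0.0056 for all features, and 0.014 in AgNPs, beside 0.0028. Written as fold changes, the 95% intervals of the 10 genes in both groups lay within 0.673-fold and 1.57-fold of control. Changes larger than that lie outside these intervals, and smaller ones could not be told from the spread between arrays. That bound holds only for this fit, with the arrays as deposited and the probes of a gene averaged. Under the alternatives the fitted log2 value of tfr1a in AgNPs reached 0.69, beyond the upper end of its interval here, 0.65. In a fit on probes, single hamp1 probes stood at -0.70 and 0.51 in AgNO3, against -0.088 for hamp. The intervals take 1 common spread for both groups, and where the spreads differ an interval can be too narrow. For tfr1a the SD was 0.20 on the AgNO3 arrays and 0.62 on the AgNPs arrays.

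**Figure D1:**
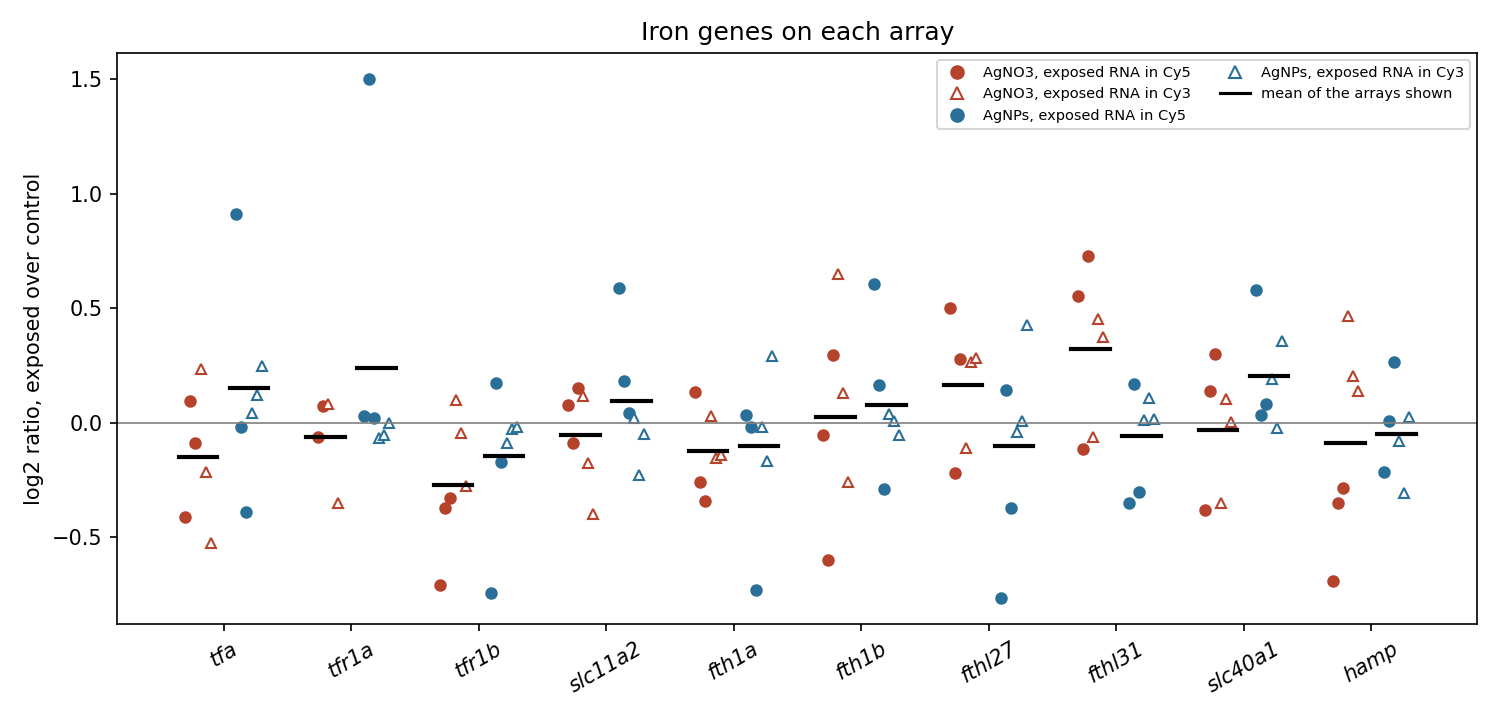
Log2 ratio of exposed over control larvae (y axis) for the 10 iron genes (x axis) on each array, with AgNO3 left and AgNPs right of each gene. Circles are arrays with exposed RNA in Cy5, open triangles those with exposed RNA in Cy3, and bars the mean of the arrays shown; every gene has arrays on both sides of 0 in both groups, and AgNPs replicate 2 stands at 1.50 for tfr1a.

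Transferrin and its receptors bring iron into most cells. The gene tfa encodes transferrin, the iron carrier of the plasma, which the liver secretes. Its log2 ratio was -0.53 at the lowest, -0.15 at the median and 0.24 at the highest on the AgNO3 arrays, and -0.39, 0.082 and 0.91 on the AgNPs arrays. Both sets of arrays lay on both sides of 0 and overlapped widely, with 4 of 6 arrays below 0 in AgNO3 and 4 of 6 above 0 in AgNPs. The fitted log2 change was -0.15 in AgNO3 (SE 0.15, n = 6, limma adjusted p = 0.774) and 0.15 in AgNPs (SE 0.15, n = 6, limma adjusted p = 0.9999). The gene had 7 probes, of which 6 averaged below 0 in AgNO3 and 7 above 0 in AgNPs. The AgNPs value rested on 1 array: on replicate 1 all 7 probes were above 0, from 0.40 to 1.58, and without that array the fitted value was -0.013.

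With the arrays as deposited, the receptor gene tfr1b had the lowest value of the 10 in AgNO3; with the swapped arrays turned it stood at -0.20 and hamp, at -0.36, was lower. Zebrafish have a pair of type 1 transferrin receptor genes, of which tfr1a is known to serve the red blood cell lineage and tfr1b other tissues. Values of tfr1b were -0.71 at the lowest, -0.30 at the median and 0.099 at the highest on the AgNO3 arrays, against -0.75, -0.058 and 0.17 on the AgNPs arrays. With the swapped arrays turned, tfr1b was above 0 on 2 of 6 AgNO3 arrays and on 4 of 6 AgNPs arrays. As deposited it was below 0 on 5 of 6 arrays in each group. So were 10.9% of all features on at least 5 AgNO3 arrays and 10.4% on at least 5 AgNPs arrays. The fitted change was -0.27 in AgNO3 (SE 0.10, with a 95% interval of 0.707-fold to 0.971-fold, limma adjusted p = 0.544) and -0.15 in AgNPs (SE 0.10, 0.903-fold with 0.771 to 1.06, limma adjusted p = 0.9999). The AgNPs value depended on single arrays, being -0.047 without replicate 1 and -0.25 without replicate 2. With 1 array left out, the AgNO3 value ran from -0.32 without AgNO3 replicate 4 to -0.21 without AgNO3 replicate 1. A single probe measured tfr1b. The 3 AgNO3 arrays with exposed RNA in Cy5 averaged -0.47 and the 3 in Cy3 averaged -0.073.

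The other receptor gene, tfr1a, was measured by 1 probe with values on 4 AgNO3 and 6 AgNPs arrays, and the fit used those 10. Its values were -0.35, -0.060, 0.073 and 0.081 in AgNO3. In AgNPs they were between -0.065 and 0.029 on 5 arrays and 1.50 on replicate 2. The fitted change was -0.064 in AgNO3 (SE 0.22, n = 4, limma adjusted p = 0.964) and 0.24 in AgNPs (SE 0.18, n = 6, limma adjusted p = 0.9999), or -0.0036 without replicate 2. Most deposited values of tfr1a were ones that many probes of an array share. On AgNPs replicate 2, 47 probes had exactly the value 1.50, and on replicate 3 its value of 0.022 was held by 2294 probes.

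The gene slc11a2 encodes Dmt1, which carries ferrous iron from the gut lumen into enterocytes and from endosomes into the cytosol. On the AgNO3 arrays its lowest, median and highest log2 ratios were -0.40, -0.0058 and 0.15, and on the AgNPs arrays -0.23, 0.031 and 0.59. Arrays of each group lay evenly around 0, with 3 of 6 above 0 in AgNO3 and 4 of 6 in AgNPs, the highest again on AgNPs replicate 1, where 1 of its probes had 1.93. The fitted change was -0.053 in AgNO3 (SE 0.083, n = 6, limma adjusted p = 0.890) and 0.093 in AgNPs (SE 0.083, n = 6, limma adjusted p = 0.9999). These were the smallest standard errors of the 10 genes, but they belong to an average over 3 probes that disagreed. The 1 probe without values shared by 10 or more probes had an SE of 0.22 in each group in a fit on probes. Its values ran from -1.51 on AgNO3 replicate 6 to 1.93 on AgNPs replicate 1. The 3 probes of slc11a2 averaged -0.39, 0.044 and 0.22 in AgNO3. As a description, their pairwise correlations were -0.76 over 8 arrays, -0.32 over 11 and 0.71 over 7. The -0.76 and the 0.71 both involve 1 probe whose values were all shared by 10 or more probes of their array. Neither therefore tells whether the probes of slc11a2 moved together.

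Ferritin stores iron in a shell of heavy and light chains, of which the heavy chain oxidizes ferrous iron for storage. The heavy chain gene fth1a had log2 ratios of -0.34 at the lowest, -0.15 at the median and 0.13 at the highest in AgNO3, and of -0.73, -0.019 and 0.29 in AgNPs. Its fitted change was -0.12 in AgNO3 (SE 0.11, limma adjusted p = 0.739) and -0.10 in AgNPs (SE 0.11, limma adjusted p = 0.9999), with 4 of 6 arrays below 0 in each group. All 4 of its probes averaged below 0 in both groups, and the probe with the lowest mean in AgNO3, -0.34, was below 0 on 6 of 6 AgNO3 arrays without passing (limma adjusted p = 0.686 in a fit on probes). The related gene fth1b ran from -0.60 to 0.65 in AgNO3 with a median of 0.038, and from -0.29 to 0.61 in AgNPs with a median of 0.023. Arrays of fth1b lay on both sides of 0 in both groups, and its 2 probes averaged -0.18 and 0.24 in AgNO3, against 0.11 and 0.050 in AgNPs. Its fitted change was 0.027 in AgNO3 (SE 0.15, limma adjusted p = 0.982) and 0.079 in AgNPs (SE 0.15, limma adjusted p = 0.9999).

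With the arrays as deposited, the ferritin heavy chain-like gene fthl31 had the highest value of the 10 in AgNO3; with the swapped arrays turned it stood at 0.067, below slc11a2 at 0.099 and tfr1a at 0.070. Its log2 ratio was -0.12 at the lowest, 0.41 at the median and 0.73 at the highest on the AgNO3 arrays, and -0.35, 0.014 and 0.17 on the AgNPs arrays. On 4 AgNO3 arrays it lay above every AgNPs array, and on replicates 2 and 4 it lay below 0, within the AgNPs range. The fitted change was 0.32 in AgNO3 (SE 0.12, 1.25-fold with a 95% interval of 1.04 to 1.49, limma adjusted p = 0.534) and -0.058 in AgNPs (SE 0.12, 0.960-fold with 0.803 to 1.15, limma adjusted p = 0.9999). In AgNO3 its probes averaged 0.49, 0.28 and 0.0032, the last with values on only 3 arrays of that group. The fitted AgNO3 value of fthl31 was 0.23 without AgNO3 replicate 3 and 0.41 without AgNO3 replicate 2.

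In the RefSeq table of assembly GRCz12tu, fthl31 lies on chromosome 3 in a row with fthl27, fthl28, fthl30 and fthl29. The deposited values cover 4 of these 5 genes, and whether transcripts of one bind to probes of another was not tested. The member fthl27 had values of -0.22 at the lowest, 0.27 at the median and 0.50 at the highest in AgNO3, against -0.77, -0.016 and 0.43 in AgNPs, with 4 and 3 of 6 arrays above 0. Its fitted change was 0.17 in AgNO3 (SE 0.14, limma adjusted p = 0.721) and -0.10 in AgNPs (SE 0.14, limma adjusted p = 0.9999), and all 4 of its probes averaged above 0 in AgNO3. Without AgNO3 replicate 1 the AgNO3 value of fthl27 was 0.068, and without replicate 4 it was 0.25. The neighbours fthl28 and fthl29 stood at 0.26 (SE 0.096, limma adjusted p = 0.543) and 0.23 (SE 0.21, limma adjusted p = 0.745) in AgNO3. The values of fthl28 were above 0 on 6 of 6 AgNO3 arrays as deposited, as were those of 1.62% of all features, and ran from 0.014 to 0.64. In AgNPs fthl28 stood at 0.11 and fthl29 at -0.52 (SE 0.21, limma adjusted p = 0.9999), where 2 arrays with -1.63 and -1.04 were far below the rest. All 4 measured genes of the row thus had fitted values above 0 in AgNO3, as did 48.2% of all features, and none passed the threshold. With the swapped arrays turned, fthl27 stood at 0.021, fthl28 at 0.034, fthl31 at 0.067 and fthl29 at -0.048 in AgNO3, where 52% of all features were above 0. So turned, fthl28 was above 0 on 3 of 6 AgNO3 arrays. In AgNPs the turned values were -0.23 for fthl27, 0.27 for fthl28, -0.10 for fthl31 and -0.069 for fthl29. The turned AgNO3 minus AgNPs value of fthl28 was thus -0.24.

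**Figure D2:**
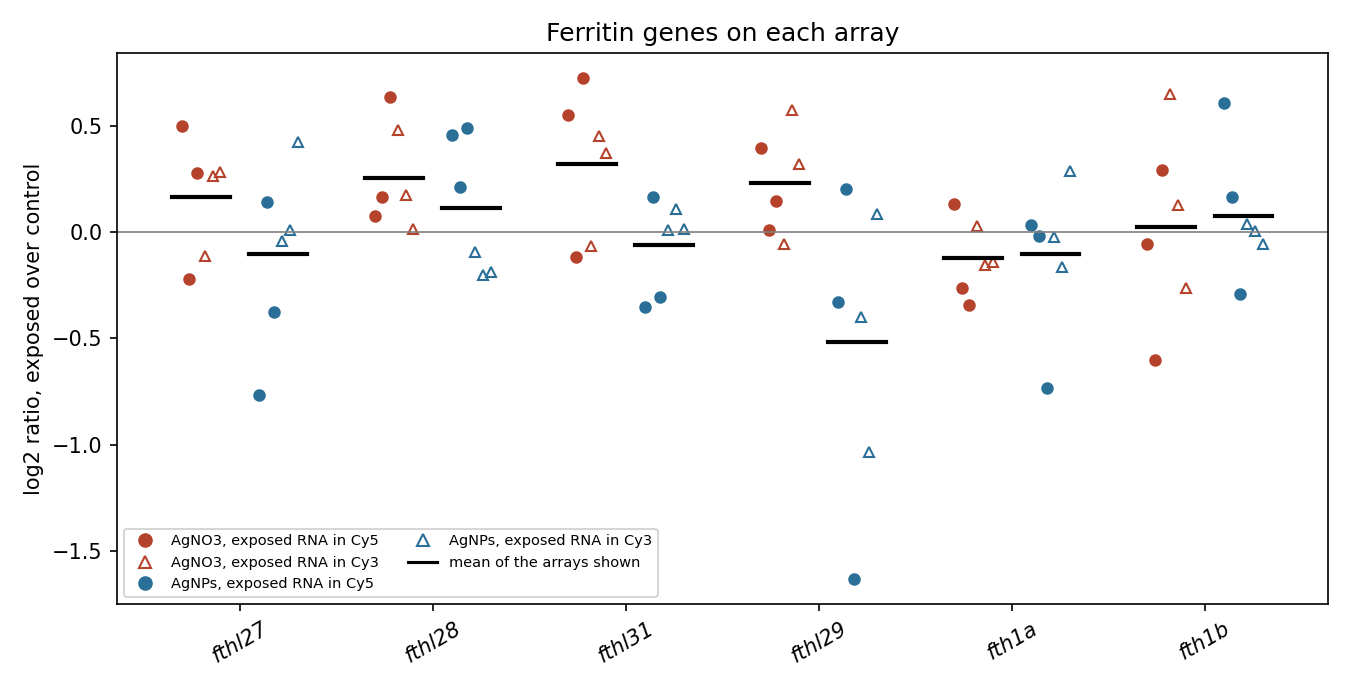
Log2 ratio of exposed over control larvae (y axis) for ferritin genes (x axis) on each array, AgNO3 left and AgNPs right of each gene; circles are arrays with exposed RNA in Cy5, open triangles those in Cy3, bars the means. The 4 fthl genes of chromosome 3 have means of 0.17 to 0.32 in AgNO3, whereas fth1a and fth1b have -0.12 and 0.027.

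Iron leaves cells through ferroportin, the product of slc40a1. With the arrays as deposited, this gene was above 0 on 5 of 6 AgNPs arrays, as were 10.5% of all features on at least 5. With the swapped arrays turned it was above 0 on 4 of 6 and stood at 0.028, while tfr1a and slc11a2 were above 0 on 5 of 6, as were 13.3% of features. Its log2 ratios were -0.38 at the lowest, 0.054 at the median and 0.30 at the highest in AgNO3, and -0.022, 0.14 and 0.58 in AgNPs. The fitted change was -0.031 in AgNO3 (SE 0.10, 0.979-fold with a 95% interval of 0.834 to 1.15, limma adjusted p = 0.962) and 0.20 in AgNPs (SE 0.10, 1.15-fold with 0.982 to 1.35, limma adjusted p = 0.9999). No AgNPs array lay far below 0, and without replicate 1 the AgNPs value was 0.13. In AgNO3 the 4 probes of slc40a1 lay on both sides of 0, with averages of 0.19, 0.0022, 0.0076 and -0.32. All 4 probes averaged above 0 in AgNPs, from 0.029 to 0.42, and the probe with 0.42 was above 0 on 6 of 6 AgNPs arrays, led by 1.07 on replicate 1 and 1.12 on replicate 6 and at most 0.14 on the other arrays.

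Hepcidin, the product of hamp, is measured by 5 probes, of which the platform annotation names 2 hamp1 and 3 hamp2; RefSeq lists both as synonyms of hamp. The averaged log2 ratio was -0.69 at the lowest, -0.075 at the median and 0.46 at the highest on the AgNO3 arrays, and -0.31, -0.037 and 0.27 on the AgNPs arrays. The fitted change was -0.088 in AgNO3 (SE 0.12, n = 6, limma adjusted p = 0.866) and -0.051 in AgNPs (SE 0.12, n = 6, limma adjusted p = 0.9999). For hamp the AgNO3 arrays split by dye: the 3 with exposed RNA in Cy5 had -0.69, -0.35 and -0.29, and the 3 in Cy3 had 0.46, 0.20 and 0.14. With the swapped arrays turned, the AgNO3 value of hamp was therefore -0.36 (limma adjusted p = 0.196), the lowest adjusted p of any iron gene under any alternative tried; so turned, hamp was below 0 on 6 of 6 AgNO3 arrays, as were 2.85% of all features. Means of both dye orientations had opposite signs for 5 of the 10 genes in AgNO3, beside 53.2% of all features, and for 7 of 10 in AgNPs, beside 53.8%. The hamp probes disagreed as well. A hamp1 probe averaged -0.70 in AgNO3, with -2.14 on replicate 1 and -1.51 on replicate 4. The other hamp1 probe averaged 0.51 because of 2.87 on replicate 4 alone, and stood between 0.0060 and 0.076 on the other 5 arrays. The averaged 0.46 of hamp on replicate 4 holds that 2.87, while hamp2 probes had 0.80 and -0.32 there. The full split by dye and the 6 of 6 therefore rest on that 1 probe value, and the turned value of -0.36 leans on it.

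The salt and the particles were compared directly as AgNO3 minus AgNPs. None of the 10 genes differed past the limma threshold, nor did any of the 25264 features. At an unadjusted p under 0.05 there was 1 iron gene, fthl31, against 4.22% of all features. It was higher in AgNO3, as were 1.65% of features at that p, while 2.57% were lower. The difference for fthl31 was 0.38 (95% interval 0.014 to 0.75, limma adjusted p = 0.858), and for fthl27 it was 0.27 (-0.16 to 0.69). With the swapped arrays turned, it was 0.17 for fthl31 and 0.25 for fthl27. On the other side the differences were -0.30 for tfa (-0.77 to 0.16), -0.30 for tfr1a (-0.96 to 0.35) and -0.23 for slc40a1 (-0.56 to 0.091). For tfr1b it was -0.12 (-0.45 to 0.20), for slc11a2 -0.15 (-0.41 to 0.12), for fth1b -0.052 (-0.52 to 0.42), for hamp -0.037 (-0.42 to 0.34) and for fth1a -0.020 (-0.35 to 0.31). In total 8 of the 10 differences were below 0, beside 51.8% of all features, but with the swapped arrays turned it was 5 of 10, beside 50.7%. Single arrays carried some of them: the difference was -0.14 for tfa without AgNPs replicate 1, -0.061 for tfr1a without AgNPs replicate 2, and -0.020 for tfr1b without AgNPs replicate 2. Apart from fthl31, the intervals hold 0, and each of them also reaches 0.31 or more in size, so the data do not show that the salt and the particles act alike on these transcripts.

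**Figure D3:**
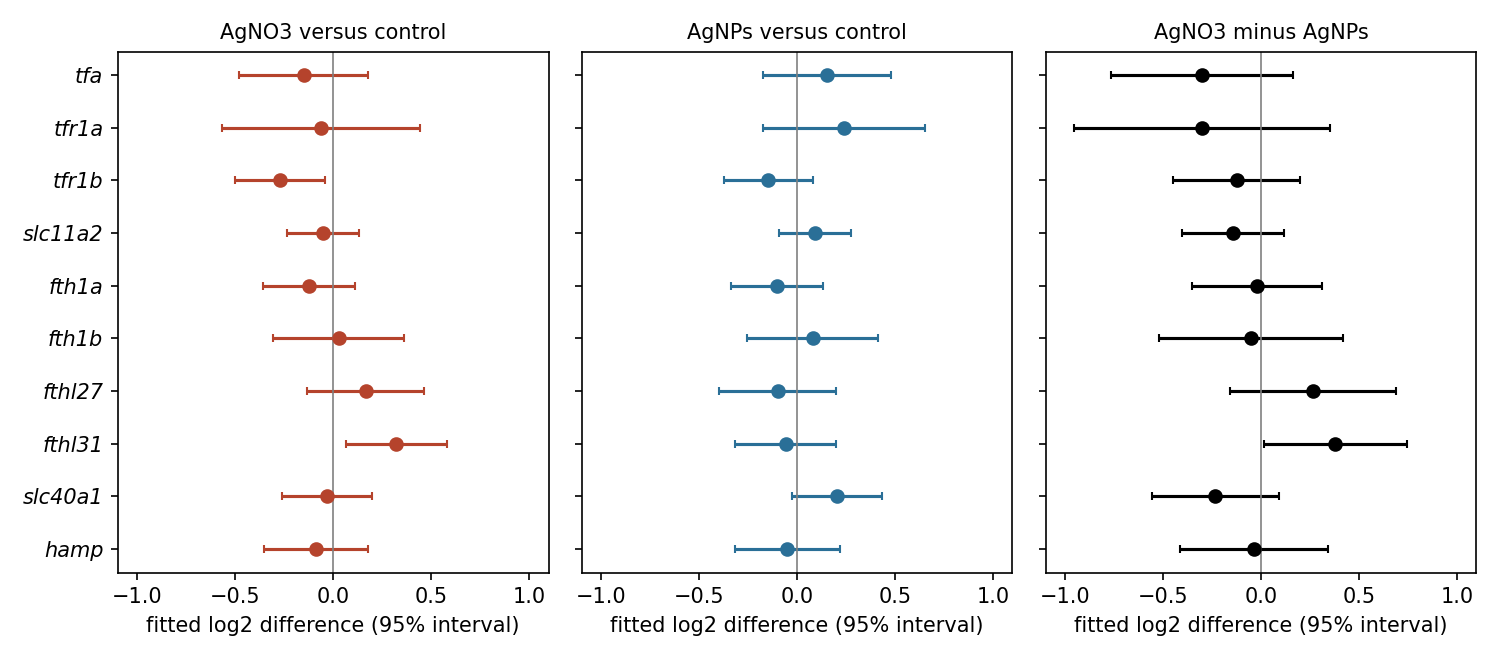
Fitted log2 differences (x axis) with 95% intervals from the limma fit for the 10 iron genes (y axis), in AgNO3 versus control, AgNPs versus control and AgNO3 minus AgNPs. With the arrays as deposited, the intervals of tfr1b and fthl31 in AgNO3 and of fthl31 in the direct comparison do not hold 0. None of the 10 passes after adjustment over 25264 features.

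How well each gene could be measured differed. Deposited log ratios took between 4155 and 17466 distinct values on an array. On the AgNO3 arrays 35.2% to 58.4% of all values were shared exactly by 10 or more probes. On AgNPs replicates 3 to 6, the arrays of narrow spread, it was 72.8% to 83.4%. For probes of the iron genes it was 18.6% of 194 values in AgNO3, beside 47.3% of all, and 39.0% of 200 values in AgNPs, beside 70.4%. No value of tfa or fthl27 was shared by 10 or more probes. At the other end were tfr1a, with 3 of 4 such values in AgNO3 and 6 of 6 in AgNPs, and hamp, with 11 of 29 and 26 of 29. For hamp, tfr1a and, in AgNPs, slc11a2 (10 of 16) and slc40a1 and fth1b (58.3% each), values close to 0 are thus often values that many unrelated probes hold too. Spot intensities were not used here, and the origin of the shared values was not tested.

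**Figure D4:**
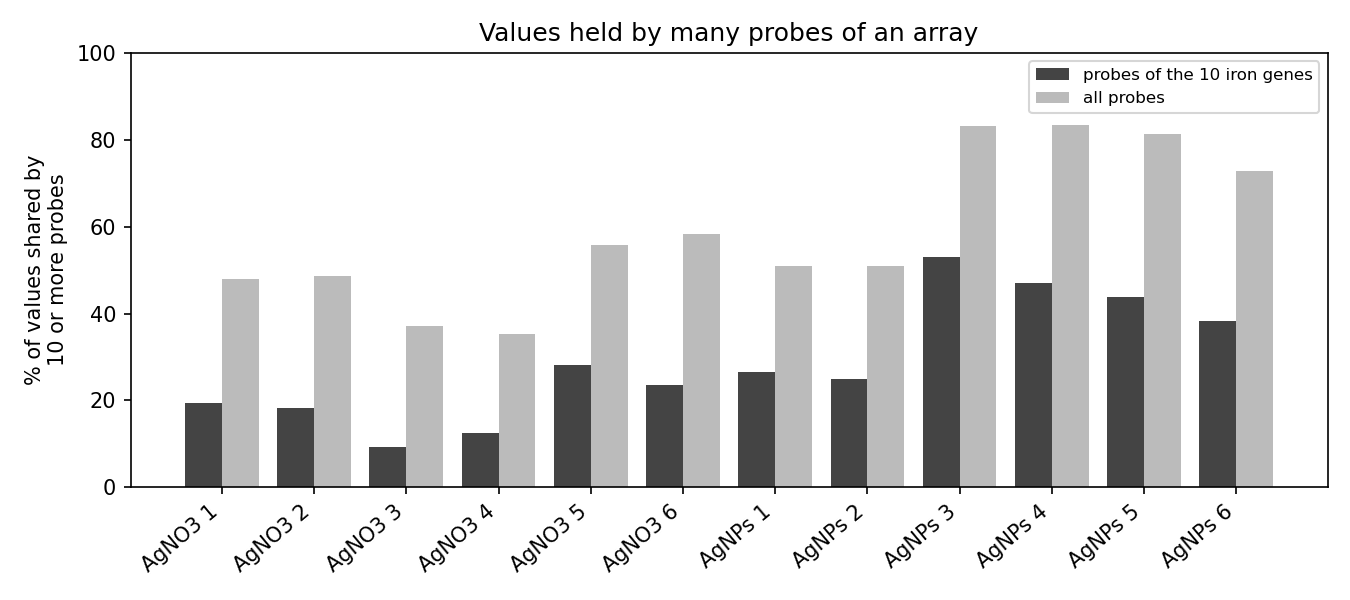
Share of deposited values that are held by 10 or more probes of the same array (y axis, percent) on each of the 12 arrays (x axis), for the 34 probes of the iron genes (dark) and for all probes (light). Shares are highest on AgNPs replicates 3 to 6, at 38.2% to 52.9% for the iron genes and 72.8% to 83.4% for all probes.

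With the shared values left out before averaging, an alternative chosen after seeing the data, 6 of the 10 genes could still be tested among 5554 features, and none passed. There slc40a1 stood at 0.36 in AgNPs (limma adjusted p = 0.341), against 0.20 in the main fit. In AgNPs slc11a2 stood at 0.28 (limma adjusted p = 0.587), on 1 probe led by 1.93 on replicate 1. Its AgNO3 value was -0.27. In AgNO3 fthl31 stood at 0.38 (limma adjusted p = 0.431), and tfa stood at -0.15 in AgNO3 and 0.15 in AgNPs. Many shared values lay close to 0, so leaving them out can by itself move an average away from 0.

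**Figure D5:**
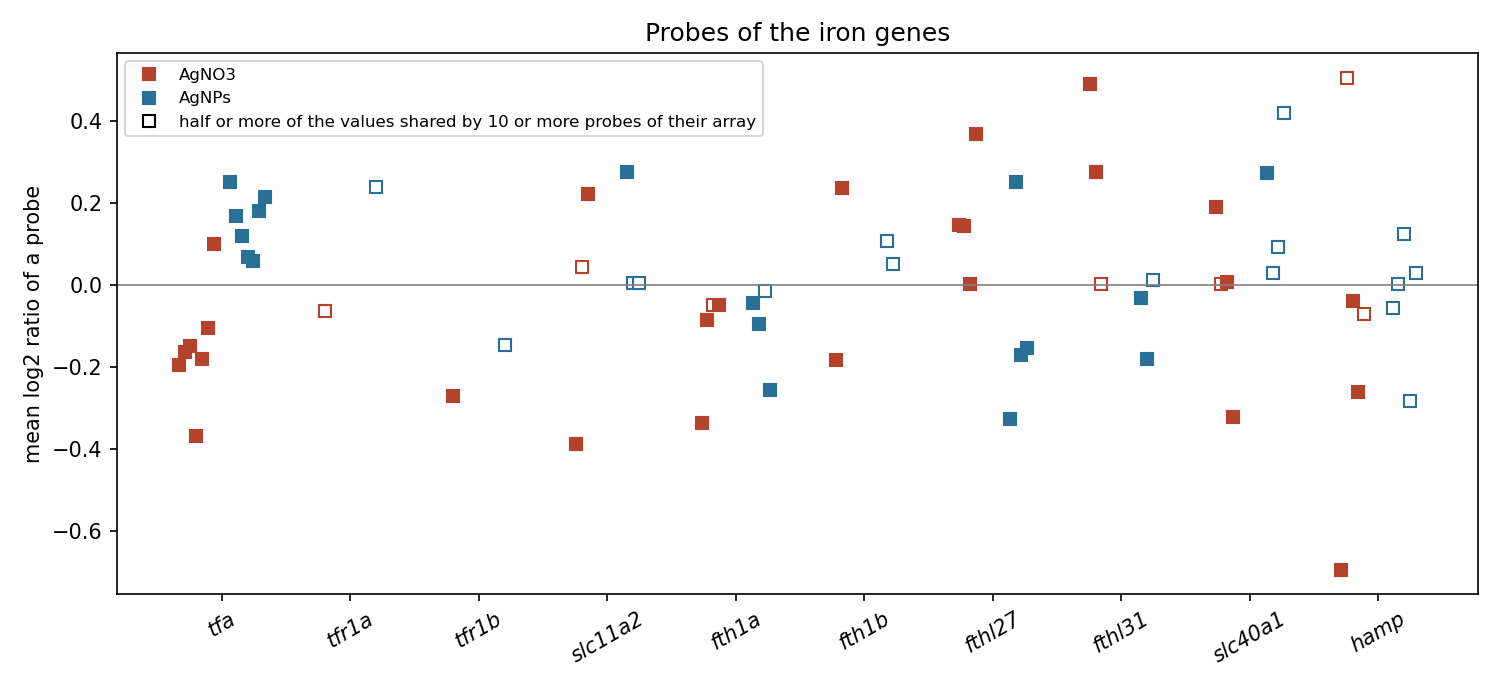
Mean log2 ratio (y axis) of each of the 34 probes of the iron genes (x axis), AgNO3 left and AgNPs right of each gene; open squares are probes with at least as many values shared by 10 or more probes of their array as not. All 7 tfa probes lie above 0 in AgNPs and 6 of 7 below 0 in AgNO3. Probes of hamp1, slc11a2, slc40a1 and fth1b lie on both sides of 0 in AgNO3.

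Genes that work beside these 10 were described by lists. The list counts and values below are for the arrays as deposited. No list count was made with the swapped arrays turned, so these counts may not hold there. Of the proteins that help iron enter cells or leave stores, 13 were tested and 0 passed in limma. Their median was 0.018 in AgNO3 and 0.014 in AgNPs, beside -0.0056 and 0.0028 for all features. None had an unadjusted p under 0.05, where 8.25% of all features did in AgNO3 and 4.24% in AgNPs. For 13 genes a count of 0 is not far from these shares. The lowest p in AgNO3 were those of cybrd1, a ferric reductase of the gut, at 0.33 (SE 0.20, led by 1.68 on replicate 1), the second transferrin receptor tfr2 at -0.17 (SE 0.10) and pcbp2, an iron chaperone, at 0.099. In AgNPs they were ncoa4, which delivers ferritin for breakdown, at -0.20 (SE 0.12), hp, haptoglobin, at 0.16, and the metalloreductase gene steap2 at 0.74 (SE 0.48). The steap2 value came from 3.89 on AgNPs replicate 2, the array that also gave 1.50 for tfr1a.

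Of 20 tested regulators of hepcidin 0 passed, and at an unadjusted p under 0.05 there were 1 above and 2 below 0 in AgNO3, where 3.54% of all features were above and 4.71% below 0 at that p, and 0 in AgNPs, where 4.24% had such a p. The gene atoh8, a factor known in mice to raise hepcidin, stood at -0.21 in AgNO3 (SE 0.065, limma adjusted p = 0.469). It was below 0 on 6 of 6 arrays, as were 2.05% of all features, and ran from -0.55 to -0.060. The protease gene furina, whose mammalian counterpart cleaves hemojuvelin, stood at -0.52 (SE 0.23), with -2.14 on replicate 1, and id2a at 0.17 (SE 0.069). In AgNPs the BMP signalling factors smad9 and smad1 stood at -0.22 and -0.24 and neo1a at 0.15.

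Genes by which a cell senses iron and oxygen numbered 11, of which 0 passed. At an unadjusted p under 0.05, 1 was above and 1 below 0 in AgNO3 (8.25% of all features had such a p). In AgNPs there were 0 (4.24%). In AgNO3 egln3, an iron-dependent prolyl hydroxylase, stood at 0.65 (SE 0.22, limma adjusted p = 0.513), where 3 arrays with exposed RNA in Cy5 had 0.65, 0.80 and 2.46 and the 3 in Cy3 had -0.066 to 0.064. The iron sensor gene fbxl5, whose product marks iron regulatory protein 2 for degradation, stood at -0.31 (SE 0.14), with -0.96 on replicate 1 and -1.02 on replicate 3, and egln1b at 0.12. In AgNPs vhl stood at 0.20, epas1b at -0.21 and aco1, iron regulatory protein 1, at 0.14.

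Among 30 genes of mitochondrial iron, iron-sulfur clusters and heme 0 passed. In AgNO3 1 was above and 2 were below 0 at an unadjusted p under 0.05, which is 10.0% of the list beside 8.25% of all features. In AgNPs 4 had an unadjusted p under 0.05, which is 13.3% of the list beside 4.24% of all features. All 4 were below 0, as were 2.19% of all features at that p. The gene of the first step of heme synthesis outside red cells, alas1, stood at -0.50 in AgNPs (SE 0.12, limma adjusted p = 0.570), below 0 on 6 of 6 arrays. The scaffold for iron-sulfur clusters iscua stood at -0.30 (SE 0.11) and the mitochondrial chaperone hspa9 at -0.22 (SE 0.067), each below 0 on 6 of 6 arrays. Of all features, 1.87% were below 0 on 6 of 6 AgNPs arrays. These genes were named for the lowest p of the list, which favours such agreement. In AgNO3 slc25a37, mitoferrin, which brings iron into mitochondria of red cell precursors, stood at -0.29 (SE 0.087, limma adjusted p = 0.448), below 0 on 5 of 6 arrays, hspa9 at -0.19 and the heme oxygenase gene hmox2a at 0.17.

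The list of other ferritin genes held fthl28, fthl29 and 4 further symbols for which the sources used here give no function. Of these 6, 5 were above 0 in AgNO3 with a median of 0.23, beside 48.2% of all features, and 4 in AgNPs with a median of 0.031, beside 51.7%; 0 passed. The symbol zgc:173594, which lies 7 places from fthl27 on chromosome 3, stood at 0.25 in AgNO3 (SE 0.10, limma adjusted p = 0.575). In AgNO3 zgc:172145 stood at 0.23, led by 1.09 on replicate 5, with a median of 0.022 over its 5 arrays. The symbol zgc:171686 stood at 0.11 in AgNO3 and at -0.20 in AgNPs, the latter led by -1.16 on replicate 1.

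Markers of the tissues that use these genes were measured alongside. Hepatocyte markers, relevant for tfa and hamp, had medians over 18 genes of -0.27 to 0.46 on the AgNO3 arrays and -0.18 to 0.33 on the AgNPs arrays, and 9 had fitted values above 0 in AgNO3 (48.2% of all features) and 14 in AgNPs (51.7%). On AgNPs replicate 1, where tfa was highest, their median was -0.0053. The hepatocyte genes of lowest p were fabp10a at 0.28, ttr at 0.39 and apobb.1 at 0.18 in AgNO3, and apom at 0.56, fabp10a at 0.33 and fgb at 0.38 in AgNPs. Erythrocyte markers had medians over 18 genes of -0.19 to 0.071 in AgNO3 and -0.029 to 0.11 in AgNPs. Of the 18, 13 had fitted values below 0 in AgNO3 (51.8% of all features) and 11 in AgNPs (48.3%). The globin gene hbae3 stood at -0.49 in AgNO3 and at 0.40 in AgNPs, led by 1.35 on AgNPs replicate 1. In AgNO3 hbba2 stood at -0.24, led by -1.18 on replicate 4, and klf1 at 0.16. In AgNPs hbbe2 stood at 0.26 and epb41b at -0.18. None of these passed.

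Macrophage markers, relevant for slc40a1, had medians over 13 genes of -0.27 to 0.049 on the AgNO3 arrays and -0.070 to 0.14 on the AgNPs arrays. Of the 13, 12 had fitted values below 0 in AgNO3 (51.8% of all features) and 6 in AgNPs (48.3%). At an unadjusted p under 0.05, 3 were below and 1 above 0 in AgNO3 (8.25% of all features had such a p), and 1 above 0 in AgNPs (4.24%). In AgNO3 mpeg1.1 stood at -0.42, cd74a at -0.36 and csf1ra at 0.24, and in AgNPs cd74a stood at 0.28, mpeg1.2 at -0.17 and cxcr3.2 at -0.11. Enterocyte markers, relevant for slc11a2, had medians over 16 genes of -0.11 to 0.26 in AgNO3 and -0.38 to 0.17 in AgNPs. The enterocyte list went both ways: at an unadjusted p under 0.05, 4 were above and 4 below 0 in AgNO3 (8.25% of all features had such a p), and 1 above and 6 below 0 in AgNPs (4.24%). Above 0 on 6 of 6 arrays were cdx1b at 0.35 in AgNO3 (1.62% of all features) and apoa4b.2 at 0.44 in AgNPs (2.05%). The genes of lowest p were below 0 on 6 of 6 arrays, as were 2.05% of all features in AgNO3 and 1.87% in AgNPs. They were slc15a1b at -0.50 in AgNO3 and -0.69 in AgNPs, anpepb.1 at -0.41 and -0.58, slc5a1 at -0.28 in AgNO3 and slc26a3.2 at -0.82 in AgNPs. Inflammation can raise hepcidin in mammals. In the list of acute phase and inflammation genes, 14 of 17 had fitted values below 0 in AgNO3 (median -0.17) and 13 of 17 in AgNPs (median -0.11). Of all features, 51.8% and 48.3% were below 0. At an unadjusted p under 0.05, 4 of the list were below and 0 above 0 in AgNO3 (8.25% of all features had such a p). In AgNPs 1 was below and 0 above 0 (4.24%). In AgNO3 mmp13a stood at -0.89, irg1l at -0.39 and il1b at -0.19, and in AgNPs irg1l at -0.35, nfkbiab at -0.14 and nfkbiaa at -0.11. None of the markers or inflammation genes passed in limma, and their part in the values of the iron genes was not tested.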

How the data were processed

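For each probe of 12 two-colour arrays the authors deposited 1 log ratio, taken here as log2; its base and its normalization are not stated per the labels. Trizol was the reagent for RNA, and both dyes were incorporated as cyanine CTP, per the labels' protocols. Scanner, software and spot filters are unknown. Empty values made up 6.97% to 10.9% of an array. Without intensities no depth can be given; precision depends on the number of arrays.

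Probes were named through the platform annotation, brought up to date with RefSeq by accession (24749 probes), current symbol (4278) or synonym (1133); 26 kept an old symbol and 13417 stayed unnamed. Probes of a gene were averaged per array. Features with a value missing on more than 1 array of any dye orientation and group were dropped, which left 25264, of which 14329 were genes. A single limma fit (version 3.58.1, R 4.3.3) over the 12 arrays estimated each exposed group's mean and a dye-orientation effect; moderated tests were 2-sided, with Benjamini-Hochberg adjustment over all features at 0.05. The fit was also run on simulated normal noise with a single spread per feature and known shifts added in AgNO3. That noise had no dye effect, no shared values and no narrow arrays, so it does not test the fit under those conditions. Alternatives changed the sign of swapped arrays, dye term, arrays fitted, scale, weights, blocks, filters, probe summary and arrays left out.

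The members and lists were chosen with earlier results of these data known. Named were the 10 members and, of each other list, the 3 genes of lowest p in each group and any gene past the threshold. The AgNO3 value of fthl29, the genes cdx1b and apoa4b.2, and a few values of named genes in the other group, were added after their values were seen. Lists covered other ferritins, iron entry and release, hepcidin regulators, iron sensing, mitochondrial iron and heme, acute phase, and hepatocyte, erythrocyte, macrophage and enterocyte markers.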

Additional observations from a re-analysis of the deposited data

Results flagged for a closer look

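Of 20 sets of values, 1 gene in 1 group each, 1 had an array far from the others by Dixon's test of the gap over the range. Chance flags about 5% of such sets where all values follow 1 normal spread. The AgNPs sets mix arrays of wide and narrow spread and hold many shared values, so that rate may not apply to them. The flagged set was tfr1a in AgNPs, where replicate 2 stood at 1.50 and the other 5 arrays between -0.065 and 0.029. The gap was 0.94 of the range. The transferrin receptor gene is measured by a single probe, and 47 probes of that array held exactly this value.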

How the results depend on the processing

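Under 13 alternatives and with each of the 12 arrays left out in turn, 0 of the 10 iron genes passed the limma threshold in any comparison. Of 723 gene values 675 kept their direction and 48 reversed. Many of the 723 could hardly reverse, since several alternatives change the error and not the fitted value. For tfa in AgNO3 it was -0.15 without the dye term, with groups fitted apart and with any AgNPs array left out. With the swapped arrays turned 9 of 30 values reversed, and without the dye term 0 of 30. Counts over all features rested on few calls. For AgNO3, 3 features passed, against 0 with groups fitted apart, after scaling the arrays to one spread, with array weights or without AgNPs replicates 3 to 6, 1 with less variable features left out, 11 with shared values left out, and 0 to 2 with 1 array left out. For AgNPs, 6 passed, against 0 with swapped arrays turned or groups fitted apart, 20 with scaling, 19 with weights, 2 with less variable features left out, 10 without replicates 3 to 6, 48 with shared values left out, and 1 to 7 with 1 array left out. The difference gave 0, against 7 without AgNPs replicates 3 to 6 and 0 to 1 with 1 array left out. The cause of these shifts was not tested.

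With the replicate number as a block, 0 features passed for AgNO3 and 0 for AgNPs. Same-numbered arrays correlated at -0.104 to 0.0071 in their deviations. Arrays that shared a control sample correlated at only -0.0067 to 0.048. Such correlations therefore cannot tell whether the replicate numbers pair the samples.

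With swapped arrays turned, AgNO3 values were 0.016 for tfa, 0.070 for tfr1a, -0.15 for fth1b, 0.099 for slc11a2 and 0.050 for slc40a1, the AgNPs value of hamp was 0.069, and the differences were 0.0016 for tfa, 0.10 for fth1a and 0.022 for slc40a1. Array weights gave fth1b -0.043 in AgNO3 and -0.0044 in AgNPs, and differences of 0.018 for hamp and 0.023 for fth1a. Scaling gave fth1b -0.0010 in AgNPs and differences of 0.11 for fth1a and 0.0023 for fth1b. Medians over probes gave slc11a2 0.037 in AgNO3 and -0.018 in AgNPs, fthl31 0.0055 in AgNPs, and differences of 0.063 for fth1a and 0.056 for slc11a2. Without AgNPs replicates 3 to 6, AgNPs values were 0.25 for hamp and 0.042 for fth1a. The cause was not tested.

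With 1 array left out, AgNO3 values ran from -0.20 to 0.0095 for tfr1a, -0.18 to 0.015 for hamp, -0.10 to 0.16 for fth1b and -0.096 to 0.056 for slc40a1. AgNPs values ran from -0.013 to 0.28 for tfa, -0.0036 to 0.33 for tfr1a, -0.15 to 0.038 for hamp, -0.17 to 0.019 for fth1a, -0.046 to 0.15 for fth1b, -0.19 to 0.024 for fthl27 and -0.11 to 0.0028 for fthl31. Differences ran from -0.13 to 0.066 for hamp, -0.14 to 0.048 for fth1a and -0.18 to 0.080 for fth1b.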
